A study of Saccharomyces cerevisiae with 54 samples.

Results

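The 48 genes described here act in meiosis and sporulation of the budding yeast Saccharomyces cerevisiae. They were taken by symbol from a list and located in a gene table of the R64 assembly, which holds 6002 nuclear protein-coding genes, and all 48 were found. They comprised 3 regulators, 21 early genes of recombination and chromosome pairing, 16 middle genes of the meiotic divisions and spore formation, and 8 late genes of the spore wall. Acetylated histones H3 and H4 were mapped by ChIP-seq in 3 strains, namely wild type (YSB787), hda1-/- (YTK113), which lacks the histone deacetylase Hda1, and tup1-/- (YTK202), which lacks the corepressor Tup1. The myc tag was mapped in a further 3 strains, namely an untagged one (YTK304), one with Hda1-18myc (YTK376) and one with Hda1(arb2{delta})-18myc (YTK383), in which Hda1 lacks its Arb2 domain. Each genotype was 1 strain. All strains were grown in YPD, a rich glucose medium, at 30 °C, so the cells were dividing and had not been placed in a sporulation medium. The labels do not give ploidy or mating type, so whether these cells could enter meiosis is not known here. H3 acetylation was in 1 set of libraries without spike-in, H4 acetylation and the myc tag in a set labelled with a spike-in of other chromatin and in a set without, and each strain had 2 libraries in each set.

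Sporulation is the response of a diploid yeast cell to starvation. A transcription factor, Ime1, starts the programme, the kinase Ime2 carries it on, and the transcription factor Ndt80 switches on the middle genes. In growing cells these genes are kept off, the early ones by Ume6, which brings in the deacetylase Rpd3, the middle ones by Sum1, which brings in the deacetylase Hst1, and the dityrosine genes DIT1 and DIT2 by Tup1 with its partner Ssn6. Hda1 is a further deacetylase with known physical and functional ties to Tup1. Acetylation of histone tails is found over promoters and the starts of genes that are transcribed.

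The measure was the share of a gene's coding region, or of the 400 bp upstream of its start codon, that lay under the peaks of a library. The peak lists hold no read counts, so the depth of a library is unknown, no interval can be given, and the measure says how far a peak reaches but not how high it is. A gene gained when the lower of its mutant libraries exceeded the higher wild-type library by 10 percentage points or more, and lost when the reverse held. With 2 libraries against 2 an exact permutation test cannot give a p under 0.33, so this call carries no p, and a linear model across all genes (limma, with Benjamini-Hochberg adjustment) is given beside it as an alternative. The labels number the libraries but do not say whether they came from separate cultures, so the spread between them may be technical. Both mutants were set against the same wild-type libraries.

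The acetylation lists held 2191 to 3197 peaks per library, which covered 2681703 to 3152437 bp for H3 acetylation and 3163868 to 4192994 bp for H4 acetylation. The 2 libraries of a group shared 81.5 to 90.4% of the length that either covered. In hda1-/- no peak met the HDA1 coding region in any of the 6 libraries, against 8.91 to 19.1% of it in the other strains. TUP1 had no H4 acetylation peak in tup1-/-, against 2.66 to 7.80% in the other strains, whereas H3 acetylation was listed at 0 there in every strain and checked nothing. The 48 genes overlapped no other coding gene and lay on 12 chromosomes.

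In wild type acetylation peaks covered less of the meiotic genes than of all genes, and what they covered lay mostly away from the start of the gene. H3 acetylation peaks covered a mean of 21.6 and 19.4% of the 48 coding regions in the 2 wild-type libraries, against 30.7 and 30.5% over all genes. For H4 acetylation the means were 26.4 and 26.0% with spike-in and 23.3 and 24.5% without, against 41.7 to 42.9% over all genes. The region upstream of the start codon stood further apart: 8.09% of it in both H3 acetylation libraries and 8.74 to 9.38% in the 4 H4 acetylation libraries, where all genes had 42.6 to 57.5%. Across all 18 acetylation libraries, 15 of the 48 coding regions (31.25%) were never met by a peak, against 10.5% of all genes. For the upstream region this held for 36 of the 48 (75%), against 13.5% of all genes.

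The never-covered coding regions were spread unevenly over the stages. They were 2 of the 21 early genes, MEI5 and MND1, whose products assist the strand exchange protein Dmc1. They were 8 of the 16 middle genes, namely SPO19, SPO74, SPO75, SPR28, SPS1, SPS2, SPS4 and SSP2, and 4 of the 8 late genes, namely CDA1 and CDA2, the chitin deacetylases of the spore wall, GAS2, a glucan-modifying enzyme, and DIT2, a cytochrome P450 of dityrosine synthesis. The regulator IME2 was the remaining one. SPS1, a kinase of spore formation, and SPS2 are neighbours in tandem, 262 bp apart, and neither had a peak. A peak that is absent from a list says only that the caller's threshold was not passed.

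**Figure D1:**
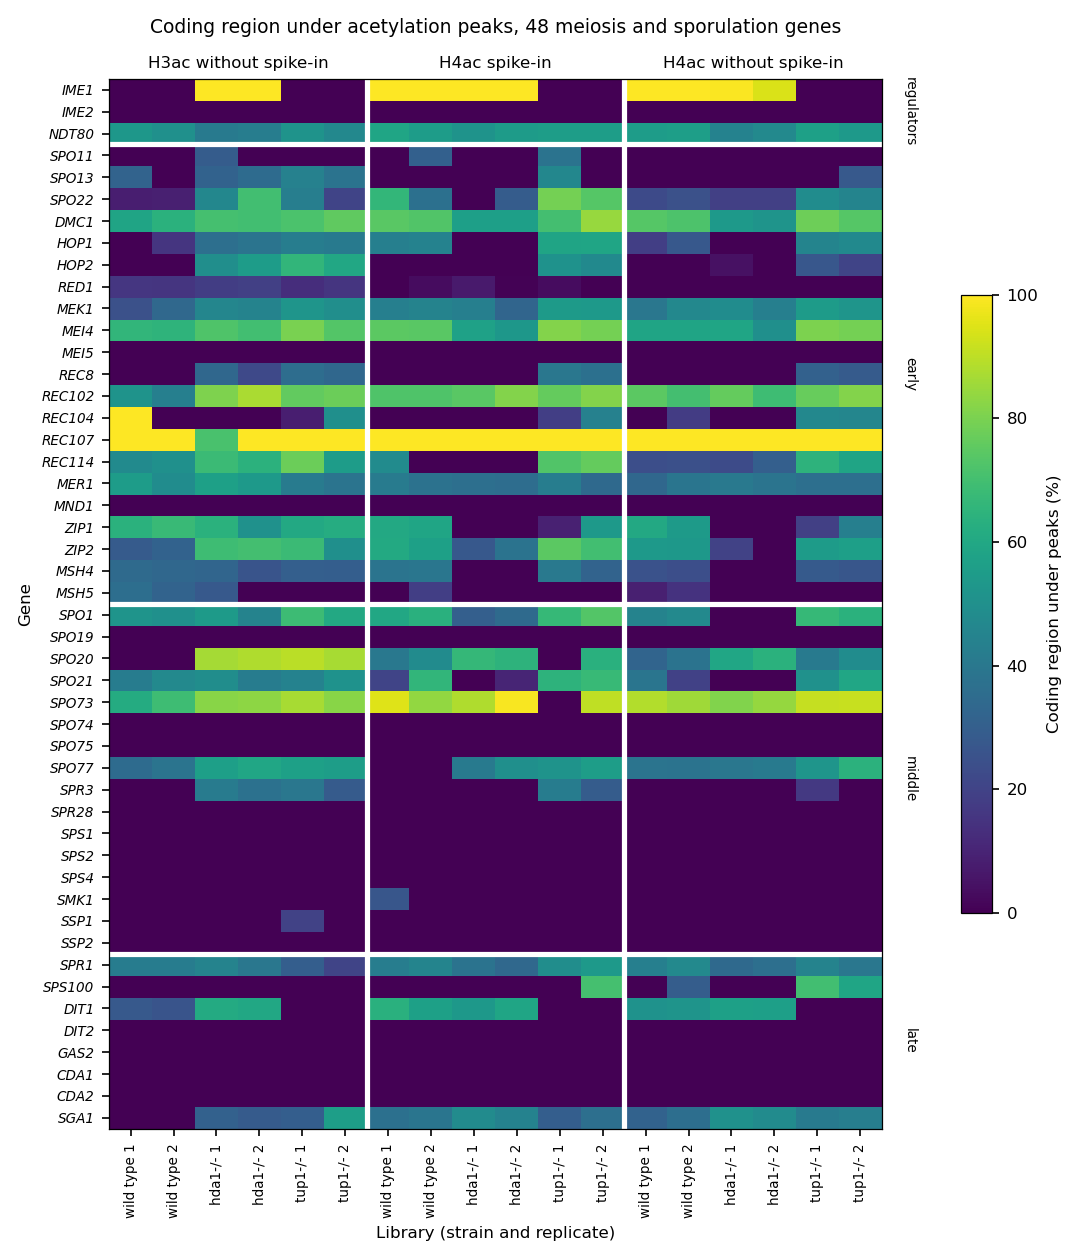
Share of each coding region under peaks (colour, 0 to 100%) for the 48 genes (rows, by stage) in the 18 acetylation libraries (columns, by set, strain and replicate). The 15 wholly dark rows are the genes never met by a peak, IME1 is at 0 in both tup1-/- libraries of each H4 acetylation set, and REC107 is at 100% in 17 of the 18 libraries.

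The position of the peaks along the gene was inverted. Over all genes the share under H4 acetylation peaks in wild type was highest in the first of 10 equal parts of the coding region, with 63.6 to 66.5% in the 4 libraries, and declined to 27.5 to 29.9% in the last. In the 48 meiotic genes it was 6.25 to 8.33% in the first part, 42.4 to 45.3% in part 8 and 30.2 to 41.7% in the last. H3 acetylation had the same order, with 6.25 and 4.17% in the first part, 39.3 and 35.3% in part 8 and 37.9 and 35.6% in the last, against 49.3 and 49.0%, 23.8 and 23.5%, and 24.3 and 23.8% over all genes. The meiotic genes therefore lay below the other genes at the start codon and above them near the stop codon, in every wild-type library.

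The same libraries were also counted gene by gene. Of the 20 meiotic genes met by an H3 acetylation peak in both wild-type libraries, 11 had a peak that reached the stop codon and not the start codon, 7 had a peak that reached neither, and only 2, REC107 and SPO73, had one over the start codon. Of all 3417 genes met by a peak in both of these libraries, 56.7% had a peak that reached the start codon alone and 11.3% one that reached the stop codon alone. For H4 acetylation the start codon was covered at 3 meiotic genes in both sets, IME1, REC107 and SPO73. These were among 21 genes met in both libraries with spike-in and 23 without. With spike-in 14 of the 21 had a peak that reached the stop codon alone and 4 one that reached neither. Without spike-in 8 of the 23 reached the stop codon alone and 12 neither. Of all genes met, 57.2 and 58.7% had a peak at the start codon alone, and 31 and 27.6% at both.

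The end of a gene can lie beside the promoter of the next protein-coding gene when both are read in the same direction, as for 30 of the 48 genes. In these the last of the 10 parts was covered by 41.2 and 40.3% in the wild-type H3 acetylation libraries, against 33.0 and 32.5% in all 2896 genes with such a neighbour. For the 18 whose downstream neighbour faces them the values were 32.3 and 27.6%, against 16.3 and 15.9% in all 3084 such genes. H4 acetylation with spike-in stood likewise above all genes with either arrangement, at 46.7 and 44.4% against 38.1 and 39.3%, and at 33.4 and 29.3% against 20.7 and 21.2%. Without spike-in only the facing pairs did, at 25.2 and 20.6% against 19.6 and 19.5%, since the others had 33.2 and 42.5% against 36.1 and 36.1%. The part of neighbouring promoters in these values was not tested, and tRNA and other noncoding genes were not counted as neighbours.

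**Figure D2:**
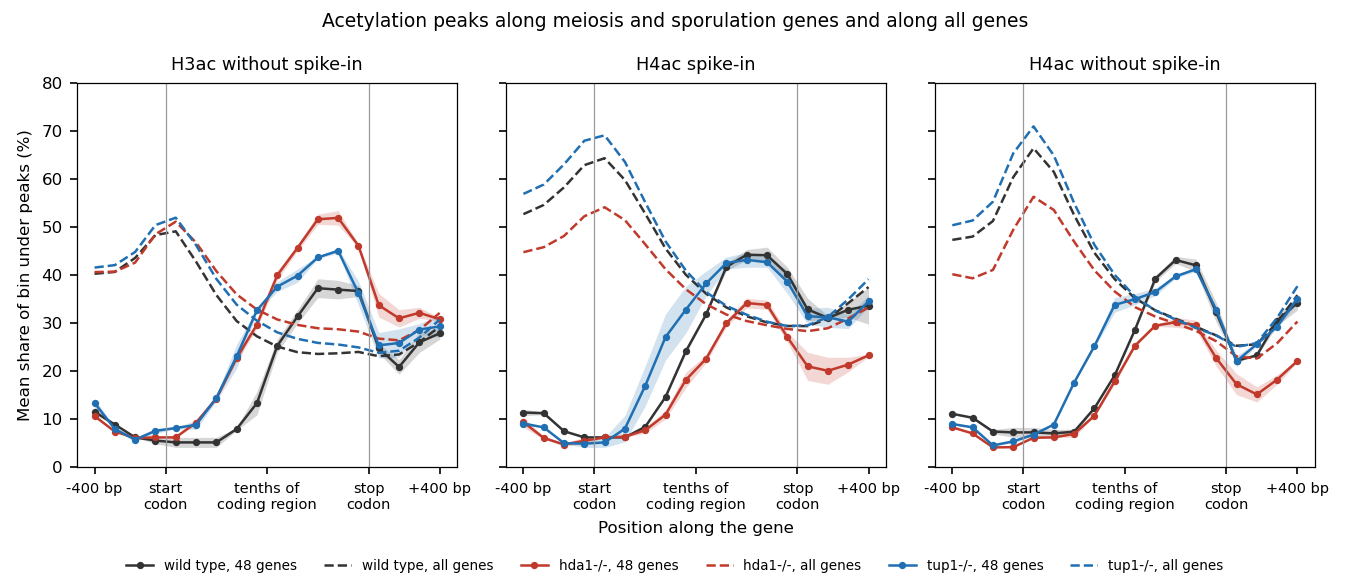
Mean share of each bin under peaks (%), from 400 bp upstream of the start codon through 10 equal parts of the coding region to 400 bp past the stop codon, for the 48 genes (solid lines, band spanning the 2 libraries) and all 6002 genes (dashed lines) in the 3 strains. The dashed lines peak at the start codon, where the solid lines lie under 10%, and the solid lines peak at parts 8 and 9.

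In hda1-/- H3 acetylation peaks covered more of the meiotic genes and H4 acetylation peaks covered less, as they did over all genes. The mean share of the 48 coding regions under H3 acetylation peaks was 32.3 and 31.3% in hda1-/-, above both wild-type libraries, a difference of 11.3 points (SD between libraries 1.53 in wild type and 0.741 in hda1-/-, n = 2 each). All genes moved the same way, from 30.7 and 30.5% to 35.1 and 35.7%. For H4 acetylation the 48 genes had 19.1 and 20.3% in hda1-/- with spike-in and 18.9 and 18.2% without, below all wild-type libraries. All genes were lower too, with 41.7 to 42.9% in wild type and 38.1 to 38.9% in hda1-/-. The median change over the 48 was 0.00 points in each of these comparisons, as it was over all genes, because many genes had no peak in either strain.

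Gene by gene, 15 of the 48 (31.25%) gained H3 acetylation in hda1-/- and none lost, where 11.3% of all genes gained and 2.65% lost. In the limma fit 9 of the 48 rose and none fell (1 fell at an unadjusted p under 0.05), against 10.6 and 2.21% of the genes it tested. Limma tested only genes whose coverage varied between libraries. The 15 members whose coding region never met a peak were thus untested in every set, so limma counts out of 48 and these percentages differ in base. For H4 acetylation with spike-in 2 gained and 8 lost (4.27 and 10.9% of all genes), and without spike-in 2 gained and 7 lost (4.42 and 12% of all genes). The 7 that lost without spike-in all lost with spike-in too. In the limma fit 1 rose and 5 fell with spike-in (3.28 and 8.61% of the genes tested), and 3 rose and 8 fell without (6.29 and 17.6%). For H4 acetylation the shares of the 48 that lost were thus 16.7 and 14.6%. A gene without a wild-type peak cannot lose. This held for 23 of the 48 in each set, against 1465 of all 6002 genes with spike-in and 1402 without. The shares therefore do not compare genes equally able to lose.

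Loss of Tup1 was accompanied by gains of both marks and by losses at a few single genes. For H3 acetylation 12 of the 48 gained and 3 lost (10.3 and 4.97% of all genes). For H4 acetylation 7 gained and 2 lost with spike-in (7.66 and 5.48% of all genes), and 11 gained and 3 lost without (8.23 and 5.33% of all genes). The 2 sets shared 6 of the gains, which is 85.7% of those with spike-in and 54.5% of those without. In the limma fit 9 rose and 1 fell for H3 acetylation (11 and 4.29% of the genes tested), 5 rose and 2 fell for H4 acetylation with spike-in (6.71 and 4.52%), and 8 rose and 3 fell without (10.1 and 6.92%). The H4 acetylation losses shared by both sets were those of IME1 and DIT1.

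**Figure D3:**
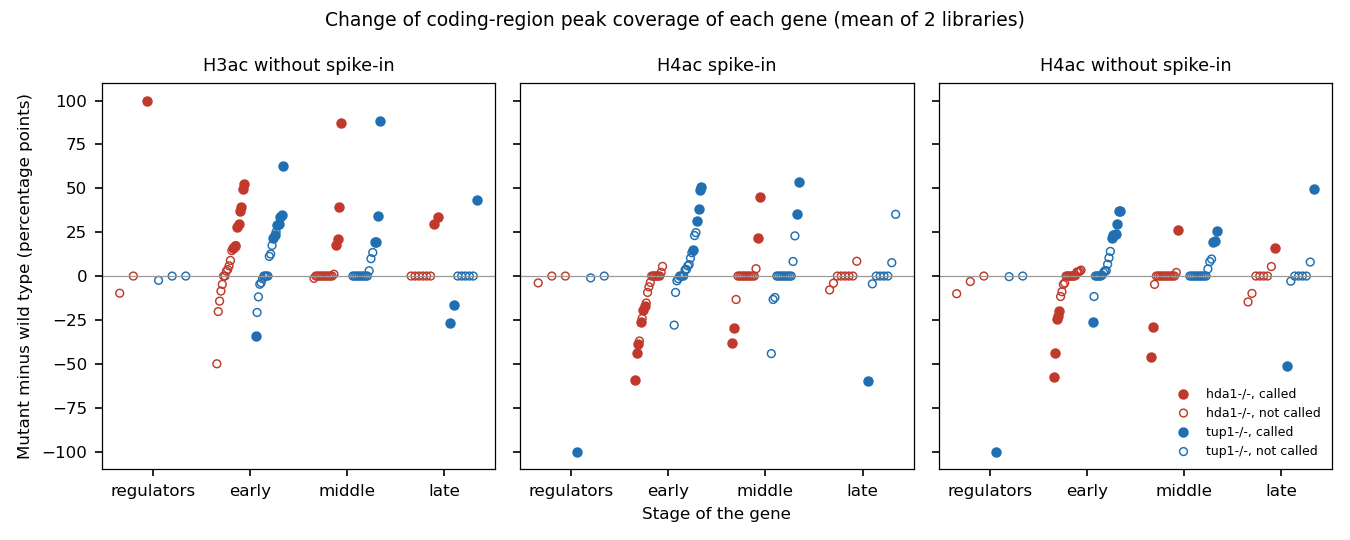
Change of coding-region coverage (mean of 2 mutant minus mean of 2 wild-type libraries, percentage points) of each of the 48 genes by stage, for hda1-/- (red) and tup1-/- (blue). Filled points passed the 10-point call and open points did not. The largest changes are those of IME1, 100 points up for H3 acetylation in hda1-/- and 100 points down for H4 acetylation in tup1-/-.

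IME1, which encodes the transcription factor that starts the programme, showed the largest coding-region change of the 48 genes, where H3 acetylation changed in hda1-/- and H4 acetylation in tup1-/-. The gene (YJR094C, chromosome X, 604569 to 605651, minus strand, in the R64 table) was wholly under an H4 acetylation peak in all 4 wild-type libraries. In hda1-/- the coverage was 100 and 100% with spike-in and 99.3 and 94.5% without, and in tup1-/- it was 0 in all 4 libraries. The loss in tup1-/- was 100 points in both sets (limma SE 1.43 with spike-in, adjusted p = 2.99e-05, and SE 1.96 without, adjusted p = 8.07e-05). H3 acetylation covered 0 in both wild-type libraries, 100 and 100% in hda1-/- and 0 in both tup1-/- libraries (gain in hda1-/- 100 points, limma SE 1.36, adjusted p = 2.77e-05). For H3 acetylation and for H4 acetylation with spike-in, both libraries of each strain were identical at IME1. The limma SE and p of these sets therefore rest on the spread at other genes. No group overlapped another in these comparisons, apart from wild type and hda1-/- for H4 acetylation with spike-in, which were equal, and wild type and tup1-/- for H3 acetylation, which were both at 0.

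The peaks at IME1 placed these changes. In wild type the H4 acetylation peak began between 268 and 120 bp before the start codon and ended 1935 to 2112 bp after it, past the stop codon of this 1083-bp gene and toward FIP1, which lies 365 bp downstream and is read in the same direction. In tup1-/- only the distal stretch was left, from 1376 to 1397 bp after the start codon up to between 1983 and 2146 bp. In hda1-/- an H3 acetylation peak ran from 257 and 172 bp before the start codon to 1637 and 1661 bp after it, where wild type had none. In the 400 bp upstream of the gene H4 acetylation was lower in both mutants than in wild type, and H3 acetylation was found in hda1-/- alone. H4 acetylation covered 67.0 and 57.0% in wild type with spike-in, 36.5 and 8.25% in hda1-/-, with 0 in tup1-/-, and H3 acetylation 0 in wild type, 43.0 and 64.3% in hda1-/-, with 0 in tup1-/-. Without spike-in H4 acetylation upstream was at 30.0 and 43.8%, 0 and 1.25%, and 0. The H4 acetylation losses had limma adjusted p of 0.152 and 0.0549 with spike-in and 0.0187 and 0.0195 without, in hda1-/- and tup1-/- respectively.

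The IME1 promoter also holds IRT1, a noncoding RNA whose transcription through the promoter is known to repress IME1 in cells that cannot enter meiosis. IRT1, which is not among the 48 and was singled out after its values were seen (chromosome X, 605936 to 607424), lies from 1773 to 285 bp before the IME1 start codon. Hda1-18myc peaks covered 81.7 and 70.0% of it with spike-in and 89.7 and 92.7% without. In the untagged strain and in Hda1(arb2{delta})-18myc it was at 0 in all 8 libraries. The nearer end of these Hda1 peaks lay 732 to 394 bp before the IME1 start codon, so the IME1 coding region itself had no Hda1 peak. H3 acetylation covered 28.6 and 22.2% of IRT1 in wild type, 19.6 and 22.6% in hda1-/-, with 0 in tup1-/-, and H4 acetylation 0 in all 12 libraries. The next Hda1 peak upstream lay over the ribosomal protein gene RPL43B, and in the Hda1-18myc library 1 with spike-in and library 2 without spike-in a single peak spanned both.

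**Figure D4:**
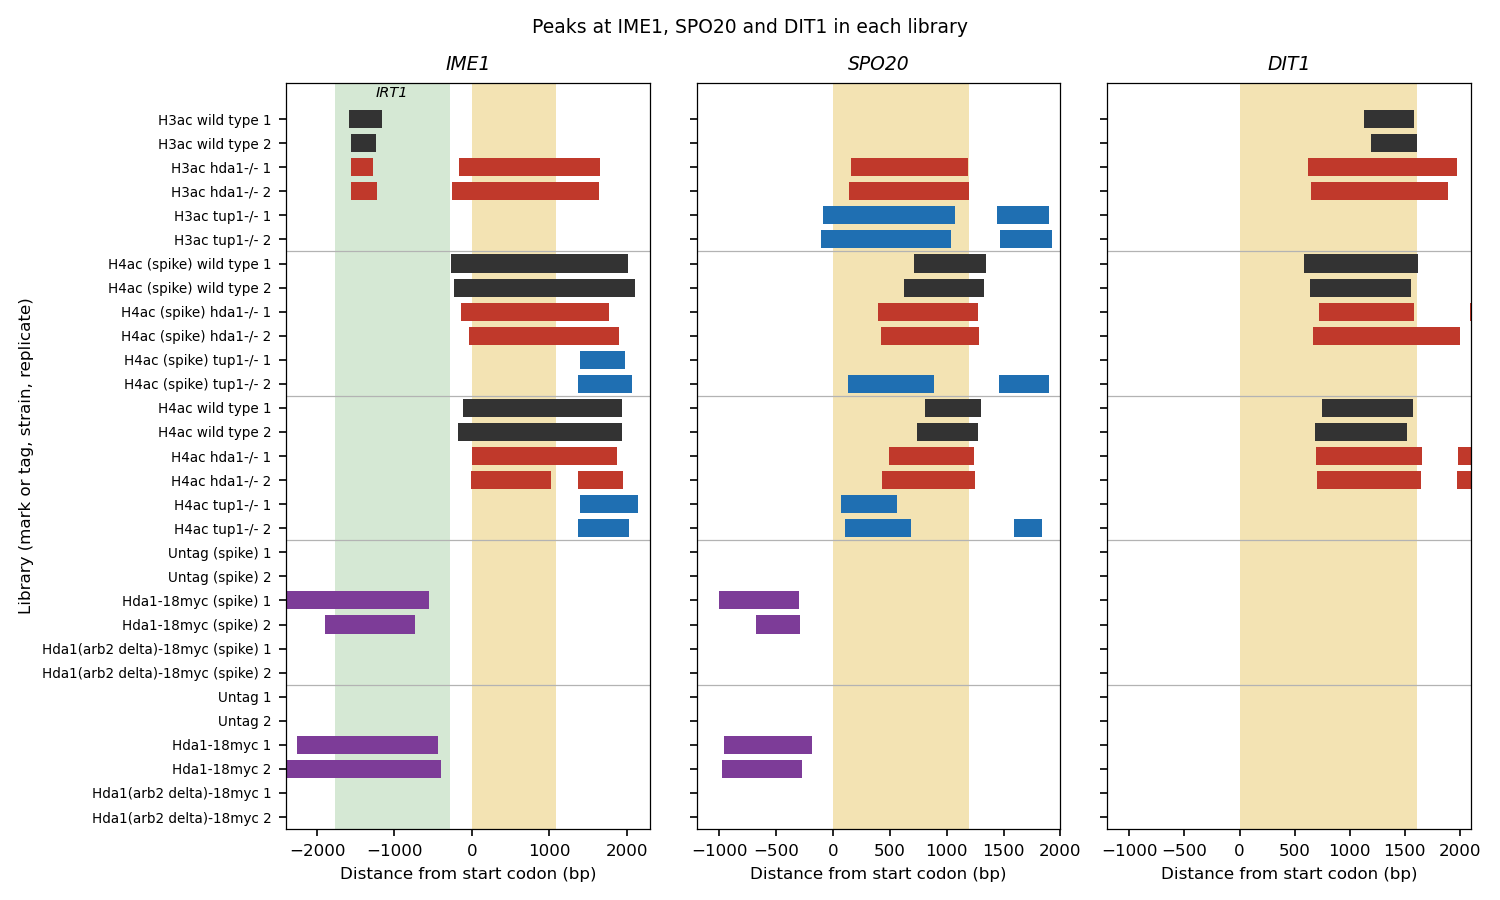
Peaks (bars) at IME1, SPO20 and DIT1 in each library (rows), by distance from the start codon (bp), with the coding region shaded in yellow and IRT1 in green. At IME1 the H4 acetylation peak over the gene is absent in tup1-/-, an H3 acetylation peak over the gene is present only in hda1-/-, and the Hda1-18myc peak lies over IRT1.

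The other regulators behaved differently. IME2, which encodes the kinase that acts after Ime1, had no acetylation peak on its coding region or upstream of it in any library. NDT80, which encodes the activator of middle genes, was covered by 52.8 and 50.1% for H3 acetylation and by 55.1 to 58.7% for H4 acetylation in wild type, all of it away from the start codon. It passed no call by the margin, though limma called its H4 acetylation lower in hda1-/- without spike-in (adjusted p = 0.0255): H3 acetylation covered 40.8 and 42.5% in hda1-/-, with 51.2 and 46.7% in tup1-/-, and H4 acetylation 44.4 to 54.7% in hda1-/- and 54.0 to 56.9% in tup1-/-. The regulators thus ranged from the largest coding-region change of the list to no signal at all.

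Of the early, middle and late genes, the early ones were the most covered in wild type, for both marks. In wild type their mean coverage was 34.4 and 29.0% for H3 acetylation, against 11.9 and 12.8% in the middle and 8.73 and 8.49% in the late genes. In hda1-/- 8 of the 21 gained H3 acetylation and none lost it, and 6 lost H4 acetylation with spike-in and 5 without, while none gained. In tup1-/- 7 gained and 1 lost H3 acetylation, 5 gained H4 acetylation with spike-in and none lost, and 7 gained and 1 lost without spike-in. Of all genes, 11.3% gained and 2.65% lost H3 acetylation in hda1-/-, and 10.3 and 4.97% did so in tup1-/-. H4 acetylation was lost in hda1-/- by 10.9% of all genes with spike-in and 12% without, and in tup1-/- it was gained by 7.66 and 8.23% and lost by 5.48 and 5.33%. The mean H4 acetylation coverage of the early genes was 34.4 and 32.9% in wild type, 19.1 and 20.3% in hda1-/-, with 45.5 and 44.1% in tup1-/-, for the set with spike-in, and 28.2 and 29.8%, 21.2 and 19.1%, and 37.7 and 39.2% without.

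The means of the early genes differed from wild type at different parts of the gene in the 2 mutants. In part 3 of 10, H4 acetylation with spike-in covered 10.2 and 9.37% in wild type, 25.5 and 33.0% in tup1-/- and 6.80 and 9.52% in hda1-/-. In part 4 the wild-type values were 22.5 and 19.0% and those of tup1-/- 39.3 and 45.6%. The excess in tup1-/- was largest in parts 3 and 4 and smaller toward the stop codon, with 57.1 and 60.8% in wild type and 66.7 and 61.9% in tup1-/- in part 8. In hda1-/- part 8 had 33.0 and 37.7%, so that the deficit lay toward the stop codon. The set without spike-in had the same order, with 8.70 and 6.26% in wild type and 27.2 and 27.5% in tup1-/- in part 3, and 49.4 and 53.0% in wild type and 33.3 and 28.6% in hda1-/- in part 8. Over all genes part 3 differed by less, with 52.1 and 53.5% in wild type and 53.2 and 57.1% in tup1-/-, and so did part 8, with 31.0 and 31.9% in wild type and 30.2 and 30.7% in hda1-/-.

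**Figure D5:**
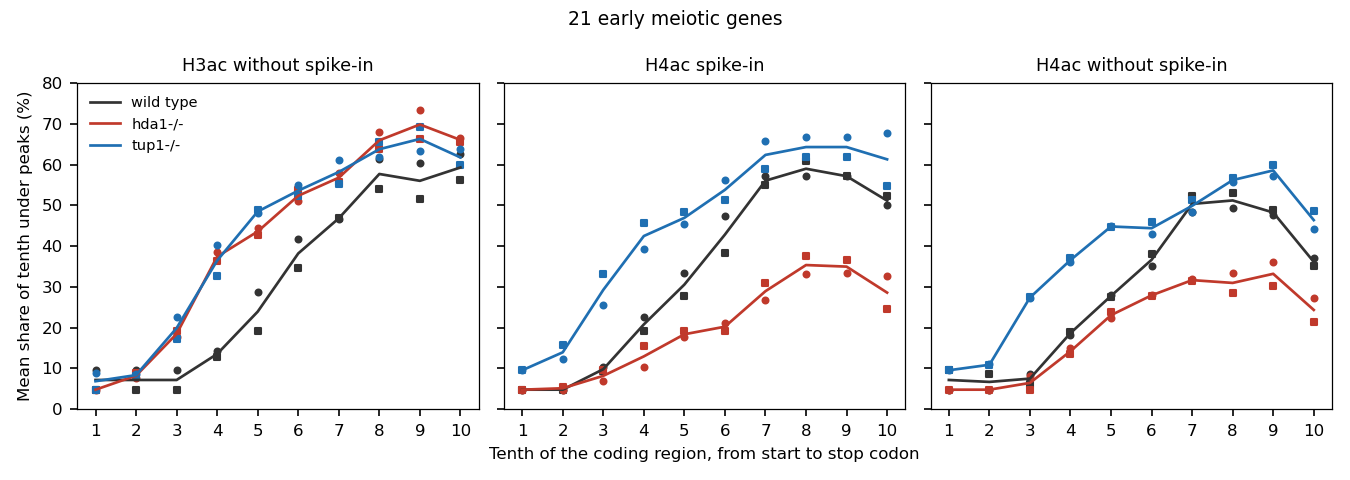
Mean share of each of 10 equal parts of the coding region under peaks (%) for the 21 early genes, with lines for the mean of 2 libraries, circles for replicate 1 and squares for replicate 2. For H4 acetylation tup1-/- lies above wild type in parts 3 to 5 and hda1-/- lies below it in parts 6 to 10, while for H3 acetylation both mutants lie above wild type from part 3 to part 5.

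HOP1, a protein of the meiotic chromosome axis, changed in opposite directions for H4 acetylation. With spike-in 43.2 and 44.4% of the gene was covered in wild type, none of it in either hda1-/- library and 58.5 and 58.9% in tup1-/-. Without spike-in the values were 18.5 and 27.4%, 0 and 0, and 45.3 and 47.5%. The loss in hda1-/- was 43.8 points with spike-in (limma SE 1.51, adjusted p = 0.000826) and the gain in tup1-/- 14.9 points (SE 1.51, adjusted p = 0.0099). H3 acetylation gained in both mutants, from 0 and 15.6% to 36.4 and 38.3% in hda1-/-, with 42.2 and 41.1% in tup1-/- (limma adjusted p = 0.0554 and 0.0336). With equal covered length in all libraries the H4 acetylation calls of both mutants and the H3 acetylation call of hda1-/- were lost. The H4 acetylation peak of wild type with spike-in began 909 and 862 bp after the start codon and that of tup1-/- 681 and 614 bp after it.

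SPO22, which encodes a crossover protein also called Zip4, is the divergent neighbour of HOP1, with 647 bp between their start codons, and neither gene had an acetylation peak in the 400 bp upstream. H3 acetylation covered 8.22 and 8.61% of SPO22 in wild type, 46.3 and 69.7% in hda1-/-, with 42.8 and 20.5% in tup1-/-, both gains by the margin. Neither gain was kept with limma or with equal covered length, and that of tup1-/- was also lost with a margin of 25 points. H4 acetylation without spike-in covered 22.5 and 24.7% in wild type, 18.8 and 18.8% in hda1-/-, with 48.5 and 44.9% in tup1-/-, a gain of 23.1 points in tup1-/-. With equal covered length in all libraries the latter turned to -6.63 points. With spike-in the wild-type libraries were apart, at 66.2 and 36.9%, and no call was passed.

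ZIP1, which builds the central region of the synaptonemal complex, ZIP2, which marks crossover sites, and MSH4, part of a crossover-promoting complex, lost H4 acetylation in hda1-/-. ZIP1 was covered by 60.2 and 58.8% in wild type with spike-in and 60.4 and 54.3% without, and by 0 in all 4 hda1-/- libraries (limma adjusted p = 0.121 and 0.0199). MSH4 was covered by 38.3 and 39.2% in wild type with spike-in and 25.3 and 23.9% without, and also by 0 in all 4 hda1-/- libraries (loss 38.8 points, limma adjusted p = 0.0087, and 24.6 points, limma adjusted p = 0.0015). ZIP2 went from 60.9 and 57.0% to 27.4 and 38.2% with spike-in, and from 54.1 and 53.4% to 19.9 and 0% without (limma adjusted p = 0.0499 and 0.0227). H3 acetylation at ZIP1 and MSH4 passed no call in hda1-/-, with 63.7 and 50.6% at ZIP1 against 63.9 and 67.6% in wild type, whereas ZIP2 gained it, from 28.7 and 31.4% to 68.9 and 70.2%, and also in tup1-/-, to 68.3 and 50%. Limma called the ZIP2 gain in hda1-/- but not in tup1-/-. With equal covered length the ZIP2 difference in hda1-/- turned to -30.1 points. In tup1-/- ZIP1 lost H4 acetylation without spike-in, at 19.1 and 43.2%, a loss that limma did not call. With spike-in the tup1-/- libraries were at 9.13 and 53.8% and no call was passed.

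DMC1, the meiotic strand exchange protein, and MEI4, needed for DNA breaks, were among the genes most covered in wild type. H4 acetylation at DMC1 fell from 74.5 and 73.0% to 56.6 and 56.3% in hda1-/- with spike-in, a loss that limma did not call. Without spike-in it fell from 73.6 and 72.0% to 54.1 and 51.9%. MEI4 lost it with spike-in, from 74.8 and 74.2% to 57.3 and 53.0%, but not without, where wild type had 58.3 and 58.3% and hda1-/- 58.9 and 49.9%. In tup1-/- MEI4 gained without spike-in, to 80.2 and 79.2% (limma adjusted p = 0.0241). H3 acetylation at both genes lay above wild type in every mutant library and passed no call, with 58.5 and 63.8% in wild type and 69.7 to 75.6% in the mutants at DMC1.

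HOP2 and REC8 had no peak of either mark in wild type and gained in the mutants. HOP2, which acts with Mnd1 in strand exchange, was at 0 in all 6 wild-type libraries. H3 acetylation covered 49.3 and 55.1% of it in hda1-/- (52.2 points, limma SE 3.25, adjusted p = 0.0029) and 65.8 and 59.8% in tup1-/-. H4 acetylation covered 50.8 and 47.6% in tup1-/- with spike-in and 27.0 and 20.3% without, and at most 4.50% in hda1-/-. REC8, the meiotic cohesin subunit, was likewise at 0 in all 6 wild-type libraries, and gained H3 acetylation in both mutants, to 33.3 and 22.1% in hda1-/- (limma adjusted p = 0.0306) and to 35.8 and 33.4% in tup1-/-. H4 acetylation at REC8 was 0 in hda1-/- and gained in tup1-/-, to 39.7 and 37.1% with spike-in and 31.2 and 28.7% without. At both genes tup1-/- thus gained both marks and hda1-/- only that of H3.

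The remaining genes of DNA break formation were uneven. REC102 gained H3 acetylation in both mutants, from 51.3 and 43.0% to 80.7 and 87.3% in hda1-/-, with 75.8 and 77.5% in tup1-/-, while its H4 acetylation passed no call, at 68.8 to 81.5% in all 12 libraries. REC114 gained H4 acetylation in tup1-/-, from 48.3 and 0% to 72.9 and 76.6% with spike-in and from 24.1 and 24.3% to 64.6 and 58.4% without (limma adjusted p = 0.235 and 0.0057). Its H3 acetylation gained in hda1-/-, from 47.8 and 50.3% to 68.3 and 64.1% (limma adjusted p = 0.324). REC104 could not be judged for H3 acetylation, since its wild-type libraries stood at 100 and 0%, but gained H4 acetylation in tup1-/- in both sets, from 0 and 0% to 18.6 and 44.1%, and from 0 and 17.9% to 46.6 and 45.7%. Limma called only the REC104 gain without spike-in. REC107, whose start codon lies 204 bp from that of the divergent gene LSM8, was covered by 100% in 17 of 18 libraries and by 71.4% in the other, hda1-/- replicate 1 of H3 acetylation. SPO11, the enzyme that makes the breaks, was met by a peak in 1 H3 acetylation library of hda1-/- and in 1 wild-type and 1 tup1-/- library of H4 acetylation with spike-in, and passed no call.

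MEK1, a checkpoint kinase of the chromosome axis, gained H3 acetylation in both mutants, from 24.6 and 33.9% to 46.0 and 44.6% in hda1-/-, with 52.1 and 49.5% in tup1-/-. Limma called the MEK1 gain in tup1-/- but not in hda1-/-. MSH5, the partner of Msh4, was the only early gene that lost H3 acetylation, from 36.3 and 32.0% to 0 in both tup1-/- libraries, and its limma adjusted p was 0.124. MER1, a meiotic splicing factor, RED1, an axis protein, and SPO13, needed for the first division, passed no call on the coding region. SPO13 had H3 acetylation at 31.7 and 0% in wild type, 31.5 and 34.9% in hda1-/-, with 44.1 and 37.9% in tup1-/-.

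Of the 16 middle genes, 8 never had a peak on the coding region, and 4 of the other 8 gained H3 acetylation in both mutants: SPO20, SPO73, SPO77 and SPR3. These were 4 of 16, where 11.3% of all genes gained in hda1-/- and 10.3% in tup1-/-. No middle gene lost H3 acetylation on the coding region in either mutant, where 2.65% of all genes lost it in hda1-/- and 4.97% in tup1-/-. However, 12 of the 16 had no H3 acetylation peak in wild type and could not lose. For H4 acetylation in hda1-/-, SPO20 gained in both sets and SPO77 with spike-in, and SPO1 and SPO21 lost in both sets. In tup1-/-, SPO77 and SPR3 gained with spike-in, and SPO1, SPO21 and SPO77 without. The shares of all genes were 4.27 and 4.42% gained and 10.9 and 12% lost in hda1-/-, and 7.66 and 8.23% gained in tup1-/-, with and without spike-in.

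SPO20, a SNARE protein of the membrane that encloses the spore, had the largest H3 acetylation gain after IME1. The gene (YMR017W, chromosome XIII, 307489 to 308682, plus strand) was at 0 in both wild-type libraries, at 86.7 and 88.3% in hda1-/- and at 89.6 and 86.8% in tup1-/- (87.5 points, limma SE 1.79, adjusted p = 9.03e-05, and 88.2 points, adjusted p = 8.7e-05). The peak ran from 156 and 140 bp to 1190 and 1197 bp after the start codon in hda1-/-, and from 92 and 104 bp before it to 1069 and 1035 bp after it in tup1-/-. H4 acetylation was present in wild type over the end of the gene only, from 620 to 808 bp after the start codon onward. In hda1-/- its near edge lay at 398 to 489 bp, and coverage rose from 40 and 48.1% to 66.7 and 64.6% with spike-in and from 32.3 and 38.2% to 59.0 and 63.7% without (limma adjusted p = 0.637 and 0.0185). In tup1-/- the H4 acetylation peak lay nearer the start codon, at 69 to 890 bp, in 3 of the 4 libraries and was missing in replicate 1 with spike-in. An Hda1-18myc peak lay upstream of SPO20 in all 4 libraries, its near edge 303 to 190 bp before the start codon, and none was listed there in the untagged or Hda1(arb2{delta})-18myc strains.

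SPO77, needed for the spore wall, gained H3 acetylation from 34.9 and 38.4% to 56.3 and 59.3% in hda1-/-, with 56.7 and 55.6% in tup1-/-. Its H4 acetylation differed between the sets in wild type, at 0 in both libraries with spike-in and at 38.4 and 38.0% without. Accordingly it gained with spike-in in both mutants, to 40.8 and 49.7% in hda1-/-, with 51.3 and 55.5% in tup1-/-, whereas without spike-in hda1-/- had 39.6 and 40.9% and passed no call and tup1-/- gained, to 52.2 and 64.3% (limma adjusted p = 0.0604). SPR3, a sporulation septin, was at 0 in all 6 wild-type libraries. Its H3 acetylation was 41.5 and 37.2% in hda1-/- (limma adjusted p = 0.0142) and 39.7 and 28.6% in tup1-/- (limma adjusted p = 0.0164), and its H4 acetylation gained in tup1-/- with spike-in, to 42.2 and 28.9%.

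SPO1, a phospholipase-like protein of spindle pole duplication, and SPO21, a component of the meiotic spindle pole plaque, lost H4 acetylation in hda1-/-. SPO1 went from 60.2 and 63.6% to 30.4 and 34.6% with spike-in (29.4 points down, limma adjusted p = 0.015) and from 44.6 and 47.2% to 0 and 0% without (45.9 points down, limma adjusted p = 0.000848). In tup1-/- it gained without spike-in, to 67.0 and 63.7%. SPO21 varied more, at 20.5 and 65.7% in wild type with spike-in and 38.7 and 19.5% without. In hda1-/- it was at 0 and 10.2% and at 0 and 0%, and in tup1-/- at 64.6 and 67.4% and at 50.4 and 59.0%, the last pair a gain. None of its limma tests passed (adjusted p = 0.287 and 0.0672 in hda1-/-).

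SPO73, which acts in growth of the spore membrane, had, like REC107, a peak over the start codon. H4 acetylation upstream was at 100% in all 4 wild-type and all 4 hda1-/- libraries, and at 0 and 18.8% in tup1-/- with spike-in and 18.5 and 11.5% without. In tup1-/- it fell by 90.6 points with spike-in and fell by 85.0 points without (limma SE 7.16 and 2.85, adjusted p = 0.00577 and 0.000411). The wild-type peak reached back to between 761 and 633 bp before the start codon, and that of tup1-/- to between 75 and 46 bp in the 3 libraries that had one over the gene. H3 acetylation upstream was at 100% in all 6 libraries, and on the coding region it gained in both mutants, from 61.3 and 68.8% to 82.2 and 82.9% in hda1-/- (limma adjusted p = 0.0568) and to 87.0 and 82.2% in tup1-/- (limma adjusted p = 0.0367). On the coding region H4 acetylation in tup1-/- was at 0 and 90.5% with spike-in and 91.2 and 91.4% without, and passed no call. SMK1, a kinase of spore wall assembly whose divergent neighbour lies 36 bp away, had upstream H3 acetylation of 46.0 and 40.3% in wild type, 24.8 and 30.3% in hda1-/-, with 27.8 and 30.3% in tup1-/-, both losses of which neither passed limma (adjusted p = 0.091 and 0.0954).

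The late genes had the lowest mean H3 acetylation on the coding region in wild type. DIT1, the first enzyme of dityrosine synthesis, moved with Tup1. The gene (YDR403W, chromosome IV, 1274602 to 1276212, plus strand) was covered by H4 acetylation peaks over 63.4 and 56.7% in wild type and 53.2 and 58.8% in hda1-/- with spike-in, over 51 and 51.8% and 57.0 and 56.6% without, and over 0 in all 4 tup1-/- libraries. The losses were 60.1 and 51.4 points (limma SE 3.44 and 1.05, adjusted p = 0.00203 and 8.07e-05). H3 acetylation lost in tup1-/- as well, from 27.9 and 25.8% to 0 and 0%, but gained in hda1-/-, to 61.3 and 59.8% (limma adjusted p = 0.00129). The wild-type peak of H4 acetylation left the start of the gene free, running from 589 to 752 bp after the start codon up to 1516 to 1617 bp. Thus wild type, hda1-/- and tup1-/- did not overlap for H3 acetylation, and tup1-/- stood apart for H4 acetylation.

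DIT2, the divergent neighbour of DIT1, starts 898 bp away and is regulated with it through their shared intergenic region. It had no acetylation peak in any library on its coding region, and neither gene had one in the 400 bp upstream. SGA1, the sporulation glucoamylase, gained H3 acetylation in both mutants, from 0 and 0% to 31.0 and 28.7% in hda1-/-, with 30.1 and 56.1% in tup1-/-, with limma adjusted p of 0.159 and 0.0657. Its H4 acetylation gained in hda1-/- without spike-in, from 31.4 and 35.9% to 50.4 and 48.3% (limma adjusted p = 0.015), and with spike-in the values of 36.7 and 38.7% against 48.1 and 44.2% passed no call. SPR1, a spore wall glucanase, lost H3 acetylation in tup1-/-, from 41.9 and 42.1% to 29.7 and 20.7% (limma adjusted p = 0.0755). SPS100, a spore wall protein, gained H4 acetylation in tup1-/- without spike-in, from 0 and 29.6% to 69.7 and 58.6% (limma adjusted p = 0.0645), while with spike-in tup1-/- had 0 and 70.3%.

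Changes upstream of the start codon were few, since only 12 of the 48 genes had any peak there in any library. By the margin, in hda1-/- 1 gene gained and 2 lost H3 acetylation (6.76 and 7.33% of all genes), none gained and 3 lost H4 acetylation with spike-in (1.77 and 12.8% of all genes), and none gained and 2 lost without (1.55 and 14.9% of all genes). In tup1-/- 2 gained and 1 lost H3 acetylation (9.15 and 6.91% of all genes), 1 gained and 2 lost H4 acetylation with spike-in (9.3 and 3.9% of all genes), and none gained and 2 lost without (9.75 and 3.2% of all genes). In the limma fit for H3 acetylation 1 rose and 0 fell in hda1-/- (7.09 and 5.71% of the genes tested), and 2 rose and 0 fell in tup1-/- (10.8 and 6.01%). For H4 acetylation with spike-in 0 rose and 2 fell in hda1-/- (1.91 and 11.8%), and 1 rose and 1 fell in tup1-/- (10.6 and 3.91%). Without spike-in 0 rose and 2 fell in hda1-/- (2.23 and 20.1%), and 0 rose and 2 fell in tup1-/- (15.6 and 4.63%). These percentages are of the genes that varied and were tested. The counts are out of 48, of which 36 had no upstream peak in any library and were not tested, so the 2 differ in base. Where limma called 0, it called at most 1 at an unadjusted p under 0.05. The losses shared by both H4 acetylation sets were IME1 and REC104 in hda1-/- and IME1 and SPO73 in tup1-/-.

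REC104, needed for DNA breaks, faces LIN1 across 500 bp and had the largest upstream loss in hda1-/-. H4 acetylation covered 55.3 and 59.0% of its 400 bp in wild type with spike-in and 68.5 and 100% without. In hda1-/- it was at 12.3 and 0% and at 0 and 0%, and in tup1-/- at 100% in all 4 libraries. The hda1-/- losses were 51 points (limma adjusted p = 0.0108) and 84.3 points (limma adjusted p = 0.0167), and the tup1-/- gain with spike-in was 42.9 points (limma adjusted p = 0.0162). H3 acetylation lost in hda1-/- too, from 100 and 84.3% to 54.3 and 41.0% (limma adjusted p = 0.211). RED1 lost H4 acetylation upstream in hda1-/- with spike-in, from 47.0 and 51.5% to 27.0 and 27.0% (limma adjusted p = 0.00808), and without spike-in its values of 54.0 and 48% against 40.3 and 39.8% passed no call. In tup1-/- SPO20 gained H3 acetylation upstream, from 0 and 0% to 23.0 and 26.0%, and so did SPS4, from 5.50 and 6.75% to 23.8 and 27.8%.

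Hda1 covered none of the coding regions by the rule for binding. With bound defined as at least 50% of the coding region under peaks in both libraries, 0 of the 48 genes were bound by Hda1-18myc in either set, where 8.53% of all genes were bound with spike-in and 7.15% without. In the untagged strain 0.0333 and 0.25% of all genes met that rule, and in Hda1(arb2{delta})-18myc 0.467 and 2.33%. Coding regions met by a peak in both Hda1-18myc libraries were NDT80, SPO11, SPO13 and MSH4 with spike-in and NDT80, SPO11, SPO13 and SGA1 without. NDT80 was covered by 13.3 and 14.4% with spike-in and 10.8 and 8.76% without, SPO13 by 24.5 and 26.0% and by 16.6 and 14.3%, and SPO11 by 11.9 and 10% and by 5.60 and 5.01%. In all 3 the peak lay over the stop codon end and ran on over a tRNA gene, YNCH0010C at NDT80, YNCH0004C at SPO13 and YNCH0001W at SPO11.

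Upstream of the start codon, Hda1-18myc peaks covered at least 50% in both libraries of both sets at 3 genes, a rule that 8.15% of all genes met with spike-in and 6.15% without, namely MSH4 (100 and 100% with spike-in, 85.8 and 84.5% without), SPO19 (90.3 and 83.8%, 74.5 and 81.8%) and SPO74 (77.5 and 83.8%, 75.0 and 71.8%). These peaks lay over the tRNA genes YNCF0004C at MSH4 and YNCG0007C at SPO74 and over the ribosomal protein gene RPL5 at SPO19. SGA1 had 70.0 and 83.0% without spike-in, but with spike-in 77.8% in one library and 0 in the other, and its peak met no other annotated gene. SPO77 had 47.0 and 50.8% with spike-in and 44.5 and 33.5% without, under a peak that lay over the ribosomal protein gene RPP0. At MSH4, SPO19 and SPO74 a peak was also listed in Hda1(arb2{delta})-18myc replicate 1 of both sets, at 53.0 to 85.3%, and in its replicate 2 without spike-in at MSH4 and SPO19, at 53.3 and 41.0%, whereas SGA1 and SPO20 had none in that strain. The untagged strain had 10.5% at SPO19 in 1 library and none at the others. Of the spike-in libraries, Hda1(arb2{delta})-18myc replicate 2 held only 59 peaks against 628 in replicate 1, and the untagged replicate 1 held 235 against 10 in replicate 2.

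A separate list of 34 further meiosis and sporulation genes was covered less still in wild type. In wild type their mean H3 acetylation was 11 and 11.1% and their mean H4 acetylation 12.8 to 15.9%, and 12 of the 34 coding regions (35.3%) never had a peak. In hda1-/- 4 gained H3 acetylation and none lost it, and 5 lost H4 acetylation in each set while none gained it. In tup1-/- 6 gained and 1 lost H3 acetylation, 5 gained and 1 lost H4 acetylation with spike-in, and 5 gained and 2 lost without. In hda1-/- these were 11.8% of the 34 for H3 acetylation and 14.7% for H4 acetylation. Of all genes, 11.3% gained H3 acetylation and 10.9 and 12% lost H4 acetylation. In each set 20 of the 34 had no H4 acetylation peak in wild type and could not lose. This held for 1465 of all 6002 genes with spike-in and 1402 without. For tup1-/- the shares of all genes were 10.3% gained and 4.97% lost for H3 acetylation, with 7.66 and 8.23% gained and 5.48 and 5.33% lost for H4 acetylation. Upstream of the 34 genes the wild-type mean was 5.31 and 4.51% for H3 acetylation and 5.10 to 7.63% for H4 acetylation. The 14 listed genes that control the programme from outside, such as UME6, SUM1 and HST1, which are expressed in growing cells, had 50.2 to 65.1% of their upstream region under H4 acetylation peaks in wild type, where all genes had 51.4 to 57.5%. Their coding regions were at 17.8 to 19.9% for H4 acetylation and at 9.37 and 10.1% for H3 acetylation. In hda1-/- 7 of these 14 lost upstream H4 acetylation without spike-in and 2 with it, where 14.9 and 12.8% of all genes did.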

How the data were processed

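The authors sequenced chromatin immunoprecipitated for acetylated H3, acetylated H4 or the myc tag. The deposited peak lists, 30 of them for 54 samples, were made with Bowtie2 2.2.5, Picard 2.6, bedtools 2.26.0 and MACS2 2.1.0 per the labels, which do not give each tool's role, and peaks were called per library, with H3 as the control for acetylation. The 24 H3 and input samples are not analysed here. The labels name the R64 build and the study's methods an older release. Genes came from an R64 table, so positions were also tested with a shift of 200 bp. The fold enrichment and the score that the authors' caller deposited were not used, and the deposited -log10 q of each peak served for a stricter list. The lists give no read counts, so the depth is unknown.

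Coverage was the percent of base pairs under peaks on nuclear chromosomes, computed with numpy 2.4.6 and pandas 2.3.3 in Python 3.11.15. Calls used a margin of 10 points, and limma 3.58.1 in R 4.3.3, with all 3 strains of a set in 1 robust fit, was the alternative, with adjustment over all genes that varied and a threshold of 0.05. On data simulated for the H3 acetylation comparison of hda1-/- over 6002 genes, the margin recovered 62% of changes of 20 points and 90% of changes of 40 points, and called 1.33% of unchanged genes. The limma test recovered 44 and 69%, and called 0.172%. Both shares of unchanged genes are out of 5802 genes and were not split by wild-type coverage. In the data themselves, 2182 of the 6002 coding regions had no H3 acetylation peak in wild type. The rates for such genes, where a peak can only appear from 0, were not tested separately, nor were those for the remaining genes alone. Other settings were a margin of 25 points, equal covered length in all libraries, other upstream windows and leaving out each library. The libraries of a group were taken as replicates. The methods state a spike-in for more libraries than the labels mark, and the sets follow the labels.

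The members and gene lists were chosen with earlier results of these data known. Named genes were the regulators, the up to 5 largest coding and up to 3 largest upstream changes in each direction and comparison, genes covered by at least 50% in both wild-type libraries, DIT1, DIT2 and neighbouring members, and the remaining genes named were added to account for the list. A planned motif search in promoters was not run because it needs sequence.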

Additional observations from a re-analysis of the deposited data

Results flagged for a closer look

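At 5 genes the mutants moved in opposite directions from the wild-type libraries they share, in every library. The difference between mutants was not tested. For H3 acetylation over the DIT1 coding region, tup1-/- minus hda1-/- was -60.5 points. For H4 acetylation over HOP1 it was 58.7 points with spike-in and 46.4 points without. Without spike-in it was 65.4 points over SPO1 and 54.7 points over SPO21. For H4 acetylation upstream of REC104 it was 93.9 points with spike-in.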

How the results depend on the processing

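Of the 88 called changes (72 coding, 16 upstream), 82 were kept with peaks of a -log10 q of at least 5, 47 with a margin of 25 points, 62 with equal covered length, 72 and 74 with the genes moved by -200 and 200 bp, 61 with limma and 46 with limma and a replicate block. The window of 200 bp upstream kept 12 of 16 and that of 200 bp either way from the start codon 11. Under all of these 18 held: HOP2, SPO20, SPR3 (both mutants), IME1 and DIT1 (hda1-/-) for H3 acetylation, SPO1 (hda1-/-), IME1, HOP2 and DIT1 (tup1-/-) for H4 acetylation with spike-in, IME1, REC114 and DIT1 (tup1-/-) without, and upstream SPO73 (tup1-/-, both sets) and REC104 (hda1-/-, without spike-in). Equal covered length turned ZIP2 (H3 acetylation, hda1-/-) to -30.1 and SPO22 (H4 acetylation without spike-in, tup1-/-) to -6.63 points. The causes were not tested.

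Coding counts moved as follows. For H3 acetylation in hda1-/-, the 15 gains became 9 with 25 points, 9 with limma and 6 with limma and a replicate block, and the 0 losses became 1 with stricter peaks, 3 with equal length and 1 with -200 bp. In tup1-/-, the 12 gains became 6 with 25 points and 5 with limma and the block, and the 3 losses 1 with limma, with or without the block. For H4 acetylation with spike-in in hda1-/-, the 2 gains became 1 with stricter peaks, 25 points and limma with or without the block, and the 8 losses 4 with 25 points, 5 with equal length, 5 with limma and 4 with the block. In tup1-/-, the 7 gains became 4 with 25 points, 3 with equal length and 4 with limma and the block, and the 2 losses 4 with equal length. Without spike-in in hda1-/-, the 2 gains became 0 with 25 points and 4 with equal length, and the 7 losses 3 and 2. In tup1-/-, the 11 gains became 4 with 25 points, 5 with equal length and 7 with limma and the block.

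Upstream counts moved too. For H3 acetylation in hda1-/-, the 1 gain became 2 with -200 bp and around the start codon and 0 with limma and the replicate block, and the 2 losses became 1 with 25 points, either shift or either window and 0 with limma, block or not. In tup1-/-, the 2 gains became 0 with 25 points and -200 bp and 1 with either window and with limma and the block, and the 1 loss 2 with -200 bp and 0 with 25 points, either window and limma, block or not. For H4 acetylation with spike-in in hda1-/-, the 3 losses became 1 with 25 points, 6 and 0 with -200 and 200 bp, and 1 around the start codon and with limma and the block. In tup1-/-, the 1 gain became 2 with 200 bp and 0 with limma and the block, and the 2 losses 1 with 200 bp and with limma, block or not. Without spike-in in tup1-/-, the 0 gains became 2 with 200 bp and around the start codon. Hda1 was found on 3 coding regions with spike-in and 1 without when 10% replaced 50%.

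Leaving out one library can only keep or add calls under the margin, and all 352 checks kept theirs. Over the libraries left out, the coding losses ranged from 0 to 2 (H3 acetylation, hda1-/-, 2 without wild-type replicate 2 or hda1-/- replicate 1 and 1 without hda1-/- replicate 2), 3 to 5 (H3 acetylation, tup1-/-, 5 without wild-type replicate 2), 2 to 5 (H4 acetylation with spike-in, tup1-/-, 5 without tup1-/- replicate 2) and 7 to 11 (H4 acetylation without spike-in, hda1-/-, 11 without wild-type replicate 1). Upstream they ranged from 1 to 2 (H3 acetylation, tup1-/-, 2 without wild-type or tup1-/- replicate 1) and 2 to 5 (H4 acetylation without spike-in, hda1-/-, 5 without wild-type replicate 2), and the gains in tup1-/- without spike-in from 0 to 1 (1 without wild-type replicate 2). The coding shares of all genes were, in the same order, 4.17 to 5.05%, 6.5 to 9.53%, 7.23 to 9.8% and 15 to 16.2%. The upstream shares were 8.71 to 12.2%, 17.8 to 20.4% and 11.8 to 13%.

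Same-numbered libraries did not deviate together (correlations -0.025 to 0.079 over coding and -0.02 to 0.039 over upstream regions), and with 2 numbers they were not taken as pairs. A margin within numbers (replicate block) kept all 88 calls, as it must, since the margin across all libraries is the stricter rule. No read depth is given, so a missing peak cannot be told from too few reads.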
